A study of Homo sapiens with 6 samples.

Results

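The globin genes are the 10 protein-coding genes of the alpha-globin cluster on chromosome 16 (HBZ, HBM, HBA2, HBA1 and HBQ1) and the beta-globin cluster on chromosome 11 (HBE1, HBG2, HBG1, HBD and HBB). They were picked out by their gene symbols, with no threshold on a measured value, and all 10 were found among the 31999 genes listed in the deposited table. The RNA came from HEL, a human erythroleukemia cell line, carrying either a lentiviral hairpin against the immune receptor gene TMIGD2 (shTMIGD2, 3 libraries) or a non-targeting hairpin (shCtrl, 3 libraries). The methods describe stable knockdown in cells selected with puromycin, and the labels number the libraries of a group as biological replicates without saying which of several TMIGD2 hairpins was used or whether transductions were separate. Both groups therefore shared the cell line, the lentiviral vector and the puromycin selection. Polyadenylated RNA was made into strand-specific libraries and sequenced.

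The values described here are levels and not responses to the hairpin. For each gene the deposited table gave 1 mean log2 CPM over the 6 libraries, where CPM is the count of a gene per 1000000 counted fragments. Single libraries had no values of their own. Neither the spread among libraries nor their depth was therefore measured, and no difference between shTMIGD2 and shCtrl with an error of its own could be computed. Columns with the authors' own comparison of the hairpins were not used. TMIGD2 itself was listed at a mean of 16.9 CPM, which pools both groups and so does not check the hairpin labels. The lowest value listed was -3.76 on the log2 scale, or 0.0736 CPM, and 2234 genes lay within 0.005 of it. The median gene was at 0.511 CPM, and 14000 of the 31999 genes, or 43.8%, reached 1 CPM.

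Hemoglobin carries oxygen in red blood cells and is built from paired alpha-like and beta-like globin chains, each of which holds a heme group. In both clusters the genes lie along the chromosome broadly in the order in which they are used in development. HBZ and HBE1 encode the zeta and epsilon chains of the embryo, HBG1 and HBG2 the gamma chains of the fetus, HBA1 and HBA2 the alpha chains of fetal and adult life, HBB the beta chain of the adult and HBD the minor adult delta chain. HBM and HBQ1 encode the mu and theta globins, whose part in hemoglobin is unsettled. The erythroid factors GATA1, TAL1 and KLF1 drive these genes from distant enhancers and from the promoters, and BCL11A and ZBTB7A are the main repressors of the fetal genes in adult cells.

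Promoter sequences are shown for HBM and HBD, the globin genes matched in the promoter table used. They were the lowest alpha-like and the next to lowest beta-like gene, and short elements of the proximal promoter are known to take part in how globin genes are read. The 160 bases before the transcription start, read 5′ to 3′ on the gene's own strand, come from RefSeq on build GRCh38.p14. HBM lies on the plus strand and the stretch is chr16:165818-165977. HBD lies on the minus strand and the stretch is chr11:5234484-5234643. Capitals mark the letters CCAAT (or its reverse complement ATTGG on the other strand), the letters CACCC (reverse complement GGGTG), the letters GATA (reverse complement TATC) and the letters ATAAA (reverse complement TTTAT).
HBM: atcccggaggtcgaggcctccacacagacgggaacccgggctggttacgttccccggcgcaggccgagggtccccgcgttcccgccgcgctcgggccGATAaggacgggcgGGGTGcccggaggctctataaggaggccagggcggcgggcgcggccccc
HBD: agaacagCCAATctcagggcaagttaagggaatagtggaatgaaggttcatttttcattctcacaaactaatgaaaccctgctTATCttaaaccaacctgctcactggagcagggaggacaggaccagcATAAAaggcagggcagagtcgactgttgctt

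Positions are counted back from the transcription start, with the base just before it as -1 and each match given by its leftmost base. In the window of HBM the search found GATA at -63 and GGGTG, the reverse complement of CACCC, at -49. It found neither CCAAT nor ATAAA within 250 bases of HBM. In HBD it found CCAAT at -153 and ATAAA at -31, with TATC, the reverse complement of GATA, at -77 and further GATA letters at -205 and -246. No CACCC lay within 250 bases of HBD, and TGACCA was absent from both windows. Only exact letters were searched, so near matches stay in small letters, such as ataag within tataagg in HBM and ccaac in HBD. The absence of a match is thus not the absence of an element. The same letters are common in general. Of 35116 promoters of the same length, 54.7% held CACCC, 45.6% GATA, 32.7% ATAAA, 32.0% CCAAT and 9.19% TGACCA. A match is a description of the letters and not of a bound site. The letters of the CCAAT and GATA motifs and those of ATAAA did not overlap one another in the stretches shown.

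HEL cells held mRNA of adult-type alpha chains and fetal gamma chains at high levels and of the other globin genes at levels from moderate to near the lowest listed. As mean CPM per kilobase of transcript, the scale on which genes of different length can be compared, HBA1 stood at 1538, HBG1 at 1440 and HBA2 at 1258. HBG2 followed at 260.2. HBB at 35.5, HBQ1 at 34.3 and HBD at 22.0 formed a middle range, HBE1 at 7.76 and HBZ at 6.88 lay close to the median of 8.52 over genes with at least 1 CPM, and HBM was at 0.199. With 1 pooled value per gene, no pair of neighbours in this order could be judged against the spread between libraries.

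**Figure D1:**
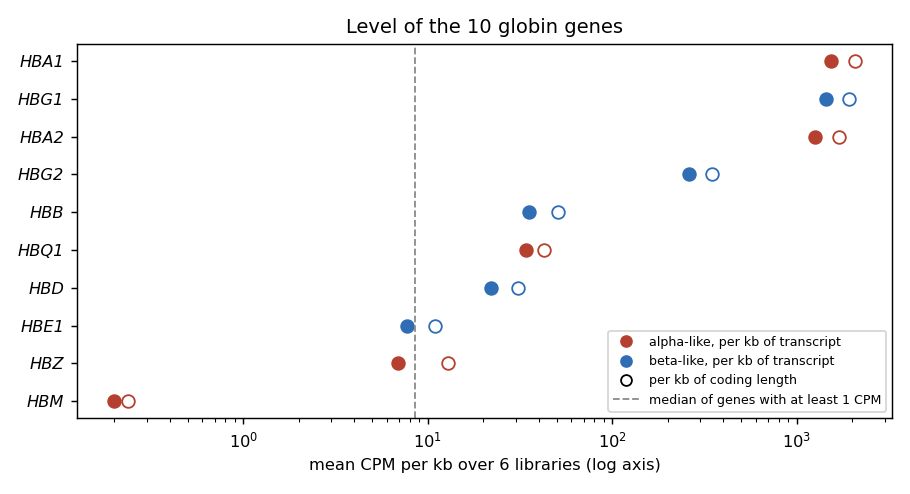
The horizontal log axis gives mean CPM per kilobase over the 6 libraries and each row is a globin gene, with filled points per kilobase of transcript (red alpha-like, blue beta-like), open points per kilobase of coding length and a dashed line at the median of 8.52 over genes with at least 1 CPM. HBA1, HBG1 and HBA2 sit at the right between 1258 and 1538 per kilobase of transcript, and HBM sits alone at the left at 0.199; there are no error bars because the file holds 1 pooled value per gene.

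The adult alpha genes HBA1 and HBA2 supplied nearly all alpha-like globin mRNA. HBA1, at chr16:176680-177522 on the plus strand of GRCh38, had a mean log2 CPM of 9.79, or 887.5 CPM, and ranked 115 of 31999 genes by CPM and 43 of 23568 per kilobase of transcript. HBA2, at chr16:172876-173710, had a mean log2 CPM of 9.50, or 724.8 CPM, and ranked 152 by CPM and 60 per kilobase. Per kilobase of transcript both genes summed to 2796, or 98.5% of the alpha-like cluster. The HBA1 to HBA2 ratio on that scale was 1.22.

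HBG1 and HBG2, the genes of the fetal gamma chains, supplied 96.3% of beta-like globin mRNA per kilobase. HBG1, at chr11:5248269-5249857 on the minus strand, had a mean log2 CPM of 9.72, or 845.5 CPM, and ranked 121 by CPM and 50 per kilobase. HBG2, at chr11:5253188-5254781, had a mean log2 CPM of 7.25, or 152.5 CPM, and ranked 1356 by CPM and 232 per kilobase. HBG1 was thus listed 5.54 times as high as HBG2, both per kilobase and as CPM. The pair summed to 1701 CPM per kilobase, which put HBA1 and HBA2 together 1.64 times as high as HBG1 and HBG2 together.

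Adult beta-like mRNA was a small share. HBB, at chr11:5225464-5227071, had a mean log2 CPM of 4.48, or 22.3 CPM, and made up 2.01% of the beta-like cluster per kilobase. HBD, at chr11:5232838-5234483, had a mean log2 CPM of 3.77, or 13.6 CPM, and made up 1.24%. HBG1 and HBG2 together exceeded HBB and HBD together 29.6-fold on the per-kilobase scale. HBB was still above 77.7% of all genes listed by CPM and above 90.7% of genes per kilobase, and HBD above 73.5% and 85.5%. Among the 14000 genes with at least 1 CPM, HBB was above 49.0% by CPM and HBD above 39.5%.

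The embryonic genes were low. HBE1, at chr11:5268345-5269945, had a mean log2 CPM of 2.27, or 4.84 CPM, and gave 0.440% of beta-like mRNA per kilobase. HBZ, at chr16:152644-154503, had a mean log2 CPM of 2.46, or 5.49 CPM, and gave 0.242% of alpha-like mRNA per kilobase. The gamma pair exceeded HBE1 219-fold and the alpha pair exceeded HBZ 407-fold per kilobase. Which of the embryonic genes stood higher depended on the scale, since HBZ led as CPM and per kilobase of coding length (12.9 against 11.0) and HBE1 per kilobase of transcript.

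The alpha-like genes of unsettled function lay far apart. HBQ1, the theta globin gene at chr16:180459-181179, had a mean log2 CPM of 4.18, or 18.1 CPM, and was close to HBB per kilobase, with a ratio to HBB of 0.967. HBM, the mu globin gene at chr16:165978-166764, had a mean log2 CPM of -3.32, or 0.100 CPM, which was 1.36 times the lowest CPM listed. With that lowest value subtracted, HBM was at 0.0264 CPM. HBM was the only one of the 10 genes below 1 CPM, and 21.5% of all genes listed had a lower CPM and 29.3% of those with a transcript length a lower level per kilobase. HBM thus lay close to the lowest level that this table resolves.

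Together the 10 globin genes amounted to 2675 CPM, or 0.267% of the CPM summed over all genes. The 4 highest genes made up 97.6% of that sum. These 4 were also the globin genes above 100 CPM, a level reached by 2344 genes, or 7.33% of those listed. The alpha-like genes summed to 2838 CPM per kilobase and the beta-like genes to 1766, a ratio of 1.61. The ratio ran from 1.57 with no division by length to 1.63 per kilobase of coding length. That range covers the choice of length only. The handling of fragments that match both HBA1 and HBA2, or both HBG1 and HBG2, was not varied. For scale, EEF1A1, the translation elongation factor gene with the highest CPM in the table, stood at 4401 CPM per kilobase, and ACTB, beta-actin, at 2617.

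Much of the transcript of the highest globin genes could not tell 1 gene of a pair from the other. All 10 genes have 3 exons, and their annotated transcripts run from 502 bases (HBM) to 798 bases (HBZ). The coding sequences of HBA1 and HBA2 were identical over all 426 bases, as were their 5′ untranslated regions, while their 3′ untranslated regions matched at 82.5% of aligned positions with 19 mismatches and 1 gap. The coding sequences of HBG1 and HBG2 differed at 2 of 441 bases, and their 3′ untranslated regions matched at 96.8% with 2 mismatches and 1 gap. Of all windows of 100 bases along the transcript, 79.7% of those of HBA1 and 79.9% of those of HBA2 occurred unchanged in the other gene, leaving 97 and 96 windows of their own. For HBG1 and HBG2 the shares were 53.9% and 54.0%, leaving 225 and 224 windows of their own.

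The split within each pair is for this reason uncertain, and whether fragments that match both genes were dropped, shared or assigned to 1 of them was not given in the sources used here. The sums over the pairs were 1612 CPM for HBA1 and HBA2 and 998.0 CPM for HBG1 and HBG2. They do not depend on how fragments were divided within a pair but would be too low if shared fragments were dropped. The shared part was larger for HBA1 and HBA2 than for HBG1 and HBG2. Ratios between pairs or clusters, the cluster shares and the globin total could thus shift too, and how far was not tested. Windows that belong to 1 gene only were nearly equal in number within each pair. Their ratio was 1.01 for HBA1 to HBA2 and 1.00 for HBG1 to HBG2. This near equality was fixed in advance, since sharing is mutual and the transcripts of a pair differ little in length. It was therefore not used to judge the 5.54-fold gap between HBG1 and HBG2. The part of read assignment in that gap was not tested.

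**Figure D2:**
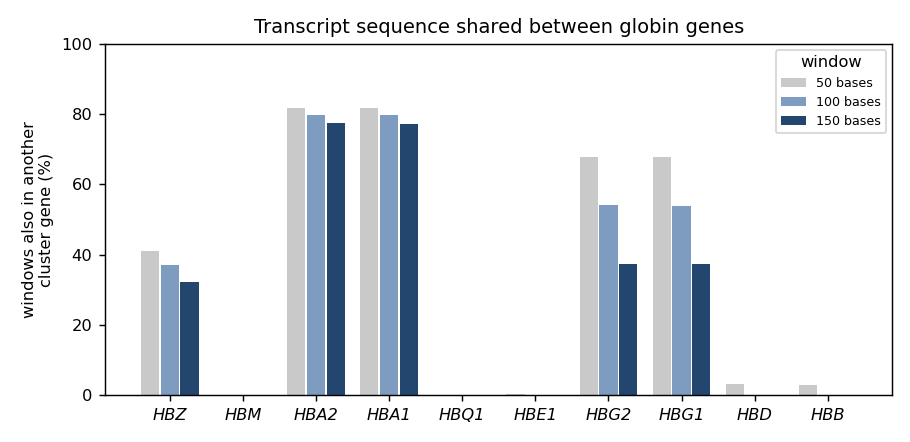
Bars give, for each globin gene, the percent of transcript windows of 50, 100 or 150 bases that also occur unchanged in another globin gene or pseudogene of the clusters, on an axis from 0 to 100. At 100 bases HBA1 and HBA2 stand at 79.7% and 79.9%, HBG1 and HBG2 at 53.9% and 54.0%, HBZ at 36.9%, and the other 5 genes at 0.

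Outside these pairs, HBZ was the only globin gene that shared windows of 100 bases with another gene of the clusters. HBZ shared 36.9% of its windows with HBZP1, a zeta pseudogene of the same cluster that was listed at 1.84 CPM per kilobase, against 6.88 for HBZ. HBB and HBD, whose coding sequences were 93.0% identical, shared no window of 100 bases and 2.94% and 2.98% of windows of 50 bases. Within the alpha-like genes, coding identity ran from 59.4% to 100%, with a median of 66.5% over 10 pairs of genes. Within the beta-like genes it ran from 76.0% to 99.5%, with a median of 78.8%. Between the clusters it ran from 51.5% to 59.2% over 25 pairs. HBM, the lowest gene, was also the partner in the least alike alpha-like pair, 59.4% identical to HBQ1.

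The order of levels along each cluster did not follow the order of the genes. The alpha-like genes span 28.5 kb and read HBZ, HBM, HBA2, HBA1 and HBQ1 from the embryonic end, with levels per kilobase of 6.88, 0.199, 1258, 1538 and 34.3. The beta-like genes span 44.5 kb and read HBE1, HBG2, HBG1, HBD and HBB, with levels of 7.76, 260.2, 1440, 22.0 and 35.5. In both clusters the peak thus lay among the middle or later genes, and both end genes lay far below it.

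Noncoding members of the clusters were listed too. HBBP1, a beta-like pseudogene between HBG1 and HBD, stood at 87.0 CPM, or 198.2 per kilobase. It exceeded HBB 5.58-fold and HBD 9.02-fold on that scale and lay below HBG2, which was 1.31 times as high. These folds depend on the transcript length used, 439 bases for HBBP1. By CPM the order was the same, with HBG2 at 152.5, HBB at 22.3 and HBD at 13.6. BGLT3, a long noncoding RNA gene between HBBP1 and HBG1, stood at 9.05 CPM, or 9.12 per kilobase. HBAP1, an alpha pseudogene, was not among the genes listed. Transcripts of neighbouring cluster genes that run on into each other could not be told apart from separate transcripts in a table of values per gene.

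The chromosomal neighbours of the clusters differed. Within 250 kb of the alpha-globin cluster, 14 of 20 listed genes reached 1 CPM, and their median was 4.25 on the log2 scale. From the flanking list, NPRL3, whose introns hold the alpha-globin enhancers, stood at 102.0 CPM (32.6 per kilobase), AXIN1, a scaffold of the Wnt pathway, at 66.5 (17.9) and SNRNP25, a spliceosome gene, at 45.3 (41.7). The lowest of its 11 genes were RGS11 at 0.432 CPM, ARHGDIG at 0.268 and PDIA2 at 0.121. Within 250 kb of the beta-globin cluster lie olfactory receptor genes, which are normally read in the nose. Of 17 such genes and pseudogenes listed, 2 reached 1 CPM, and none exceeded 1.98 CPM, the value of OR52A1. Of 4 other neighbours, none reached 1 CPM. In the fixed flanking list 9 of 13 genes were listed, of which OR52A1 alone reached 1 CPM. OR51B5 at 0.105 CPM and OR51M1 at 0.0999 came next, and OR51V1, OR51B2 and OR52D1 were at 0.0736, beside the lowest value of the table.

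**Figure D3:**
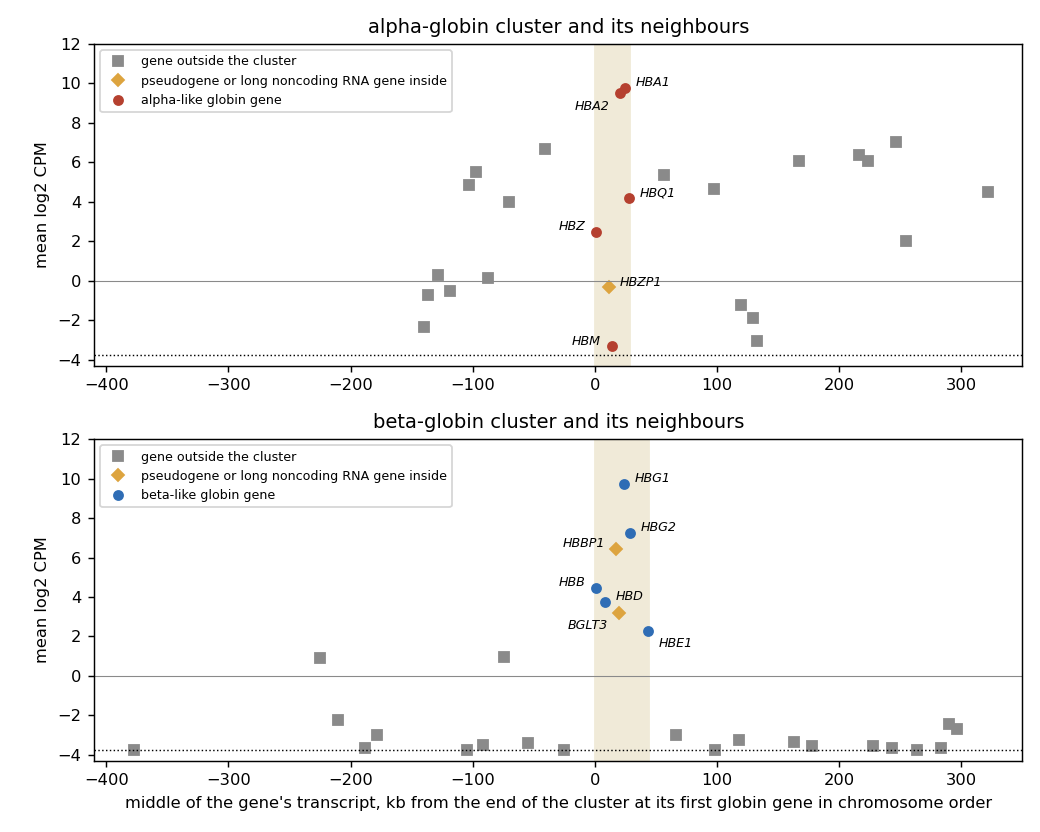
The vertical axis gives mean log2 CPM over the 6 libraries and the horizontal axis the distance of each transcript's middle, in kilobases, from the cluster edge at its first globin gene in chromosome order, with the cluster shaded, globin genes as coloured circles, noncoding members as diamonds, other genes as grey squares and a dotted line at the lowest value listed, -3.76. In the alpha panel 14 of 20 neighbours lie at or above 0 (1 CPM), and in the beta panel 2 of 21 do, both below 1 on the log2 scale.

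Genes that supply or break down heme, or act on globin chains or their translation, were present with 1 main exception. Of 15 genes, 14 reached 1 CPM, with a median of 6.45 on the log2 scale. By CPM the highest were UROD, an enzyme of heme synthesis, at 471.5 (395.2 per kilobase), SLC25A37, the mitochondrial iron importer mitoferrin-1, at 336.5 (72.0) and EIF2AK1, the kinase that slows globin translation when heme is short, at 224.8 (51.0). The lowest were HMOX2 at 20.9 (12.5) and HMOX1 at 6.73 (4.33), both of which break down heme, and AHSP, the chaperone of free alpha chains, at 0.110 (0.226). AHSP thus lay near the lowest value listed, beside a level of 2796 CPM per kilobase for HBA1 and HBA2. ALAS2, the erythroid enzyme of the first step of heme synthesis, named here after its value was seen, stood at 76.8 CPM (39.6 per kilobase).

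All 15 listed regulators of globin genes reached 1 CPM, with a median of 7.62 on the log2 scale. The highest by CPM were IGF2BP1, an RNA-binding protein of fetal tissues that raises gamma-globin when expressed in adult erythroid cells, at 517.5 (58.8 per kilobase), NFE2, a factor bound at the globin enhancers, at 497.8 (300.6) and TAL1 at 423.1 (91.2). The lowest were HIC2, a repressor of BCL11A, at 26.8 (3.92), BCL11A at 14.4 (2.37) and SOX6, which acts with BCL11A on the gamma genes, at 1.59 (0.171). The activators GATA1 at 250.8 (171.3) and KLF1 at 196.1 (121.6) lay between these ends. So did ZBTB7A, named above with BCL11A as a main repressor of the fetal genes, at 63.2 (9.82). These are levels in 1 cell line, and no relation between regulator and globin levels can be drawn from a single pooled value per gene.

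Globin genes outside the clusters were near the lowest value. MB, myoglobin of muscle, stood at 0.0947 CPM, CYGB, cytoglobin, at 0.179, NGB, neuroglobin, at 0.0736 and ADGB, androglobin, at 0.158. None of the 4 reached 1 CPM, against 9 of the 10 genes in the clusters and 43.8% of all genes listed.

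**Figure D4:**
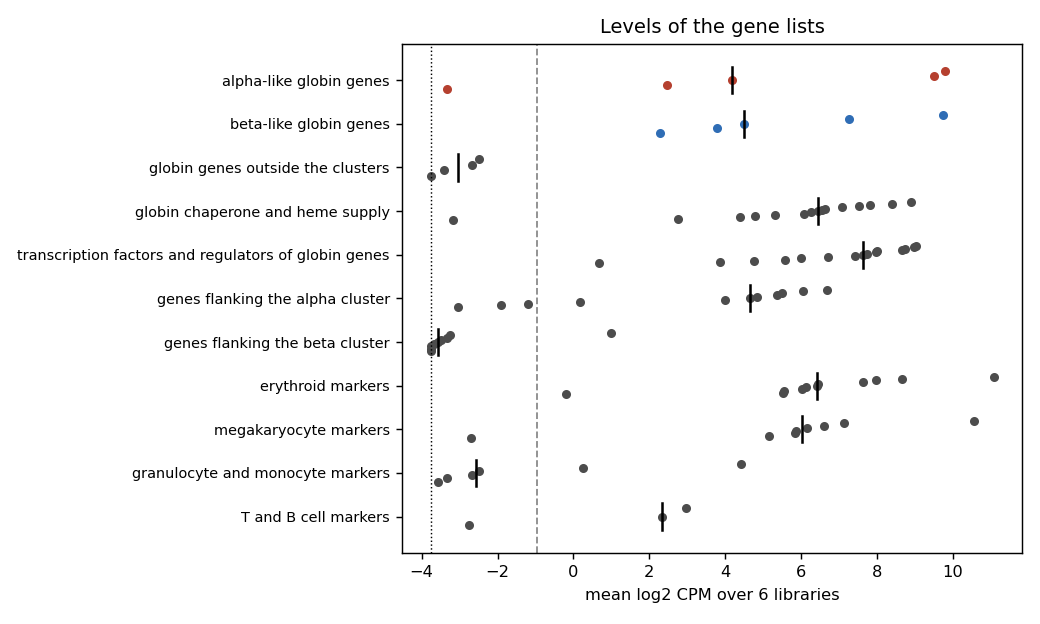
The horizontal axis gives mean log2 CPM over the 6 libraries, each point is a gene, each row a gene list and each vertical bar the list's median, with a dashed line at the median of all genes (-0.97) and a dotted line at the lowest value listed (-3.76). The medians of the alpha-like (4.18) and beta-like (4.48) globin genes lie between those of the regulators (7.62) and of the globin genes outside the clusters (-3.03).

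Checked against the label erythroleukemia, most erythroid markers were present, and megakaryocyte markers stood at levels in the same range. Of 11 erythroid markers 10 reached 1 CPM, with a median of 6.42 on the log2 scale. TFRC, the transferrin receptor, stood at 2175 CPM (434.0 per kilobase), RHAG, a red cell membrane protein, at 400.0 (211.1) and KEL, a blood group antigen, at 47.1 (18.9). GATA1, also among the regulators above, stood at 250.8 CPM (171.3). EPOR, the erythropoietin receptor, stood at 45.8 CPM (19.0), and SLC4A1, the band 3 anion exchanger of mature red cells, at 0.878 (0.177). Of 8 megakaryocyte markers 7 reached 1 CPM, with a median of 6.01. ITGA2B, the platelet integrin subunit CD41, stood at 1490 CPM (428.3) and ITGB3, its partner CD61, at 139.3 (23.4). PF4 at 56.9 CPM (73.7) and PPBP at 35.4 (27.1), both platelet chemokines, and VWF at 0.153 (0.0173) were the lowest.

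Markers of other blood cells were mostly low. Of 7 granulocyte and monocyte markers 6 were listed, and of these LYZ, lysozyme, at 21.2 CPM and CSF1R, the receptor of macrophage colony-stimulating factor, at 1.19 reached 1 CPM, while AZU1 at 0.179, CD14 at 0.157, MPO at 0.100 and ELANE at 0.0842 did not. Of 6 T and B cell markers 3 were listed, of which CD2 at 7.74 CPM and CD79A at 5.01 reached 1 CPM. In bulk RNA, fewer cells that hold a transcript and less of it per cell cannot be told apart, so a globin level here is an average over all cells of the cultures.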

How the data were processed

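RNA-seq of HEL cells carrying shCtrl (3 libraries) or shTMIGD2 (3 libraries) was analysed, with samples grouped by their labels. The authors aligned reads to hg38 with STAR 2.6.1b and counted fragments per RefSeq gene with HTSeq 0.6.1. The authors' deposited table holds, per gene, a mean log2 CPM over all libraries, which was used, and a log2 fold change, F statistic, p-value and adjusted p-value from the authors' comparison, which were not. The column names are those of edgeR, which the submitters' processing notes list beside DESeq2. The methods describe a filter for the DESeq2 test by the authors, which kept genes averaging at least 1 read in 1 of the groups. Whether the deposited table follows that filter cannot be read from pooled values. Its normalization and the count added before the log were not given in the sources used here, nor whether strand was used in counting. Depth per library is unknown from the file, so no interval, replicate error or test could be given, and no comparison of the hairpins was made.

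Log2 values were turned into CPM. These summed to 1002514 over all genes. Transcript and coding lengths came from GENCODE 44 on GRCh38, the build the authors used, for the MANE Select transcript or, where none is marked, the canonical one. Of 31999 genes 23568 (73.7%) had a transcript length, 581 of them through an older symbol. Identity was computed by global alignment of coding sequences, in place of the planned protein alignment, because no protein table was used here. Shared windows were exact matches among transcripts of the 10 globin genes and 3 pseudogenes. RefSeq promoters were matched by symbol, and 2 of the 10 globin genes were found (HBM and HBD). Motifs were searched on both strands in 250 bases. The window and motif scripts were tested on simulated sequences. Python 3.11.15, pandas 2.3.3, Biopython 1.88 and matplotlib 3.10.9 were used.

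The globin genes and the gene lists were chosen with earlier results of these data known. Named are all globin genes and, of other lists, the 3 genes highest and 3 lowest by CPM, or all genes of a list of at most 4, except 2 marker genes that are not reported here. GATA1 falls under this rule as an erythroid marker but not as a regulator. KLF1, ZBTB7A and ALAS2 and the reference genes TMIGD2, EEF1A1 and ACTB were named beside this rule. Alternatives were the lowest CPM subtracted, coding length or no length, near-identical pairs summed, other sets of genes for the ranks and 1000000 CPM as the whole. A value was said to have moved where it changed by over 1.1 times.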

Additional observations from a re-analysis of the deposited data

How the results depend on the processing

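Each value was recomputed under the alternatives in turn. Of 29 recomputed shares and ratios, 27 changed by less than 1.1 times, and the alpha-like to beta-like ratio stayed between 1.57 and 1.63. The exception was the HBZ share of alpha-like mRNA, 0.242% per kilobase of transcript. It was 0.335% both with no division by length and per kilobase of coding length. Of the 29 values, 10 only had the lowest CPM subtracted, which is too small to move them by 1.1 times. Coding lengths were 426 or 423 bases in the alpha-like genes and 441 in the beta-like genes. Within a cluster, coding length and no length were therefore nearly the same setting. The HBA1 to HBA2 and HBG1 to HBG2 ratios could hardly move, with transcripts of 577 and 576 bases and of 587 and 586 bases. No alternative changed the handling of fragments shared within a pair, so dependence on that handling was not tested. Of 43 recomputed levels and ranks of single genes, 22 moved. All 10 levels per kilobase were higher on coding length, and HBZ and HBE1 exchanged places there. Among genes with at least 1 CPM, HBB was above 49.0%, HBQ1 above 44.9%, HBD above 39.5%, HBZ above 25.5% and HBE1 above 23.6% of genes by CPM. HBM was at 0.0264 CPM with the lowest CPM subtracted. No paired analysis was possible because the file holds 1 pooled value per gene. For the same reason, leaving out each library, another normalization and a test between hairpins could not be run. Low genes such as HBM are limited by the lowest value the table resolves, and the split within HBA1 and HBA2 and within HBG1 and HBG2 by the sequence they share.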
